A study of Homo sapiens with 9 samples.

Results

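Integrins and laminins were described here as 1 set of 35 genes of the 19775 genes measured: 18 integrin alpha subunits, 7 integrin beta subunits and 10 laminin chains. Members were taken by symbol alone, as every gene named ITGA, ITGB, LAMA, LAMB or LAMC with a subunit number or letter in the array's probe annotation. ITGB6 did not enter, because its 4 probe sets each carry another symbol as well, and LAMA3 was not analysed here. The cells were Hec50, a line from an aggressive endometrial cancer. Cells were mock transfected, or received 60 nM of a scrambled negative control or of a mimic of miR-200c for 48 hours, and each group has 3 Affymetrix arrays. All 3 groups share the same line and medium, and a single line stands for the tumour type.

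Integrins are receptors of 1 alpha and 1 beta chain that hold cells to the extracellular matrix and signal in both directions across the membrane. Laminins are the main adhesive proteins of basement membranes, each assembled from an alpha, a beta and a gamma chain. Epithelial cells hold on to the laminin that contains LAMB3 through ITGA3 with ITGB1 and ITGA6 with ITGB4, and the ITGA6 and ITGB4 pair anchors hemidesmosomes. The alpha V integrins, ITGAV paired with ITGB1, ITGB3, ITGB5, ITGB6 or ITGB8, bind proteins with an arginine-glycine-aspartate (RGD) motif, and with ITGB6 or ITGB8 they activate latent TGFB1 and TGFB3. The miR-200 family represses the transcription factors ZEB1 and ZEB2 and holds cells in an epithelial state.

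The agent itself is shown with its seed, bases 2 to 8, in capitals, since these bases set which messages a microRNA pairs with. The mature RNA is from RefSeq (GRCh38.p14, chr12:6963742-6963764, plus strand), and hsa-miR-200b-3p and hsa-miR-429 have the same seed.
hsa-miR-200c-3p: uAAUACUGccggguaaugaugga

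The promoters of the pair of members that rose most with the mimic and of the laminin chain that fell most are shown because ZEB1 binds the letters CACCTG, read as CAGGTG on the other strand. Each window runs from 250 bases before the start of the RefSeq gene to 50 after it, on GRCh38.p14 in the direction of transcription. A match to either form is in capitals. LAMB3 is at chr1:209652376-209652675 on the minus strand, ITGB8 at chr7:20330650-20330949 on the plus strand and LAMC1 at chr1:183023170-183023469 on the plus strand.
LAMB3: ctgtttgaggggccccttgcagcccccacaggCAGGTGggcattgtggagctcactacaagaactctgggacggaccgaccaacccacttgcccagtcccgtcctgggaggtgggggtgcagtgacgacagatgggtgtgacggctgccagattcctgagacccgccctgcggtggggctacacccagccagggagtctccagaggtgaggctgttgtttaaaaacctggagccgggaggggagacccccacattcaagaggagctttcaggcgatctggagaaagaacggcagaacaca
ITGB8: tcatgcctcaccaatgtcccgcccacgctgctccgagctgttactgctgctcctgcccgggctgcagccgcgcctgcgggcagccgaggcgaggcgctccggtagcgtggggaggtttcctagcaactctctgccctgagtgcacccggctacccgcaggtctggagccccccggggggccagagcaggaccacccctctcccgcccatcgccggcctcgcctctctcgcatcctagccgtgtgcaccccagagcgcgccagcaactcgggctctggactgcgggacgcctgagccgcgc
LAMC1: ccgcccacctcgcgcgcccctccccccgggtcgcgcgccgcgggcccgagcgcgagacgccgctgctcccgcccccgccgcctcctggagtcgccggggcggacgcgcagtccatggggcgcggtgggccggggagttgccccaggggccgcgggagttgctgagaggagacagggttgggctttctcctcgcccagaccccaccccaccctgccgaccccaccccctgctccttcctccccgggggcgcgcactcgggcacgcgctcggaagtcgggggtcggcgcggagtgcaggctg

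The LAMB3 window held 1 match, which begins at position -218 from the start, and the ITGB8 and LAMC1 windows held none. Of the 24 members with a promoter in the table, 5 had a match (20.8%), against 20.6% of all 27305 promoters of that length. The other members with a match were ITGA11, ITGA6, LAMA5 and LAMB4, and none of these passed the test against either control below. A match is a string of letters and not a measured binding site.

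The deposited values are expression on a log scale of unstated base. The base was taken as 2, and every log2 change, fold and level class below rests on that. The values are centred so that the median of each probe set over the 9 arrays is 0, which leaves differences between arrays and removes levels. A level class (below 4, 4 to 8, or 8 and above on that scale) was recovered from the rounding of the stored numbers. By this class 14 members lay at 8 or above, 21 from 4 to 8 and 0 below 4. A gene's value is the mean of its probe sets in its highest class. The labels do not say that the 3 arrays of a group came from separate cultures, and the p-values therefore cover only the spread from array to array, which may be technical. As a check of the mimic, the log2 change against the scrambled control was -1.57 for ZEB1 and 3.26 for CDH1, the epithelial cadherin. Averaging every probe set of the gene gave -0.99 and 1.92, and quantile normalization of the centred values 1.96 for CDH1. The first rule for level classes also gave -0.99 for ZEB1, and that rule was changed because of this value, so the size of -1.57 is no independent check. Of 9 epithelial and endometrial markers measured, 5 lay at 8 or above (KRT8, KRT18, EPCAM, PAX8 and MSX1), 3 from 4 to 8, with CDH1 among them, and SOX17 below 4. Of 9 leukocyte markers CSF1R lay at 8 or above, 6 lay from 4 to 8, and 2 lay below 4, PTPRC and LYZ. Of 6 endothelial markers 4 lay from 4 to 8, and CDH5 and KDR lay below 4. Of 4 platelet markers 3 lay from 4 to 8 and PPBP below 4. Of 6 markers of fibroblasts and smooth muscle COL1A1 lay at 8 or above and the other 5 from 4 to 8.

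Against the scrambled control, 9 members changed with the mimic, 4 of them higher and 5 lower. LAMB3, ITGB8, ITGB5 and ITGA2 rose. LAMC1, ITGA3, ITGA1, ITGAE and LAMA4 fell. The other 26 members did not pass the test (limma, Benjamini-Hochberg adjusted p under 0.05 over all genes). The 9 called members are 25.7% of the set, and 14.6% of all genes were called in this comparison (7.63% higher, 7.01% lower). Calls rose with level, and no member lay below 4. Among genes at 4 or above, fitted alone, 17.2% were called, with 5 members higher and 5 lower. Among those at 8 or above 32.3% were called, with 2 of the 14 members there higher and 5 lower. The median log2 change of the members was -0.05, against -0.01 for all genes. The arrays of the groups did not overlap for 17 members, where 30% of all genes had no overlap. In these bulk samples fewer cells that make a gene and less of its RNA per cell cannot be told apart. The count of 5 lower members varied with single arrays: it was 3 without scrambled array 1, scrambled array 3, mimic array 1 or mimic array 3. In those fits 11.4% to 12.4% of all genes were called, in either direction.

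Against mock, 6 members rose with the mimic (LAMB3, ITGB8, ITGB5, ITGA2, ITGAM and LAMA2) and 6 fell (ITGA3, LAMC1, LAMB2, ITGB3, LAMB1 and LAMA4). The 23 others did not pass, so that 34.3% of the members were called, and 18.6% of all genes were called (8.38% higher, 10.2% lower). Of genes at 4 or above 21.9% were called, with 6 members higher and 6 lower. Of those at 8 or above 38.3% were called, with 4 of the 14 members there higher and 6 lower. The arrays did not overlap for 16 members, where 34.5% of all genes had no overlap. The members' median was -0.02, against 0.01 for all genes. Both comparisons use the same 3 mimic arrays, so they are set side by side and do not stand as separate evidence. In each of them LAMB3, ITGB8, ITGB5 and ITGA2 were higher and LAMC1, ITGA3 and LAMA4 lower, while 21 members passed in neither.

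**Figure D1:**
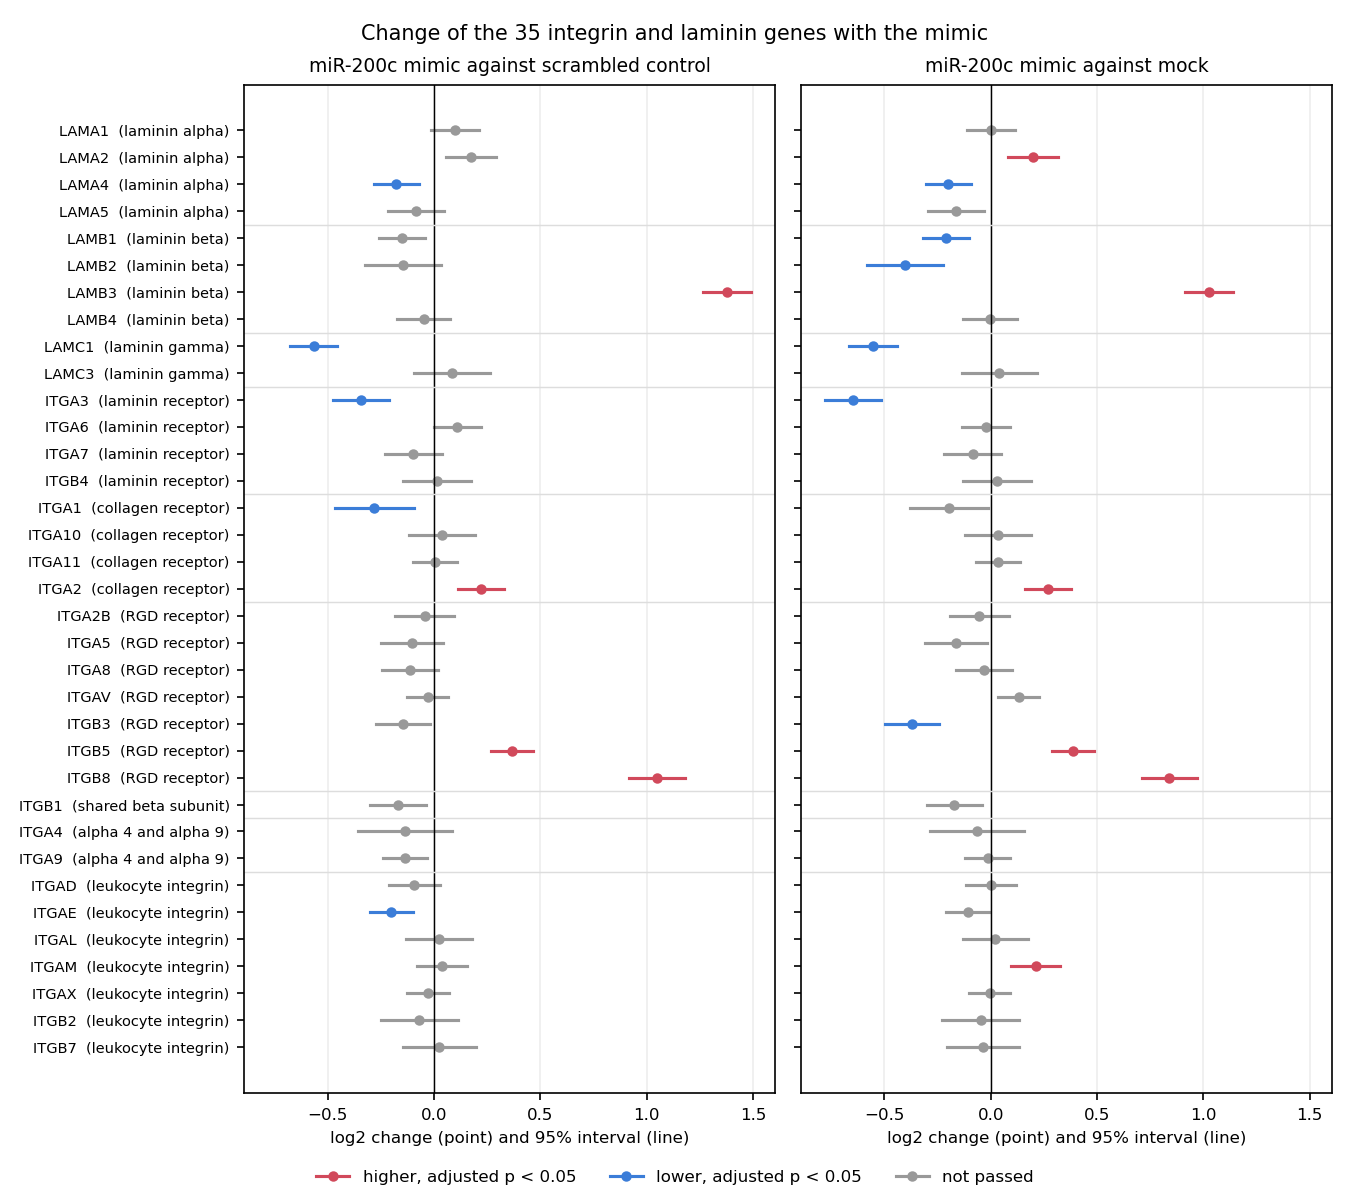
Log2 change of each of the 35 genes with the miR-200c mimic, against the scrambled control (left) and against mock (right), with points for the change, lines for its 95% interval and red or blue for an adjusted p under 0.05. LAMB3 and ITGB8 lie far to the right of the other genes in both panels, and LAMC1 and ITGA3 farthest to the left.

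The scrambled control itself differed from mock in 4 members. ITGAV was higher, and LAMB3, ITGA3 and ITGB3 were lower. That is 11.4% of the members, and 7.99% of all genes were called (2.77% higher, 5.23% lower). The arrays did not overlap for 9 members, where 30.3% of all genes had no overlap. The change of LAMB3 was -0.35, of ITGA3 -0.31 and of ITGB3 -0.22, the last a call lost in 8 of 18 alternatives. A member's change with the mimic therefore depends on which control it is read against, and both values are given for each called member.

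Among the laminin chains, LAMB3 rose most. It is a beta chain of epithelial basement membranes, with 1 probe set in the class 4 to 8. Its centred log2 values were 0.03, 0 and -0.045 in mock, -0.29, -0.38 and -0.40 in the scrambled control, and 1.09, 0.96 and 1.02 with the mimic. The 3 mimic arrays were the highest, the scrambled arrays the lowest, and no groups overlapped. With the mimic LAMB3 was 2.60-fold higher than with the scrambled control (log2 change 1.38, SE 0.051, limma adjusted p = 8.53e-08) and 2.04-fold higher than in mock (1.03, SE 0.051, adjusted p = 7.89e-07).

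LAMC1, the gamma chain found in most laminins, fell. Its values were 0.01, 0.08 and 0.08 in mock, 0.06, 0.15 and -0.01 in the scrambled control, and -0.47, -0.53 and -0.50 with the mimic. Every mimic array lay below every control array, and mock and scrambled arrays overlapped. The log2 change was -0.57 against the scrambled control (SE 0.050, limma adjusted p = 2.92e-05) and -0.55 against mock (SE 0.050, adjusted p = 3.42e-05), a level 1.48-fold and 1.47-fold lower. Both probe sets of LAMC1 were called lower in both comparisons.

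LAMB2, a beta chain of vascular and neuromuscular basement membranes, fell against mock and did not pass against the scrambled control. Its values were 0.37, 0.35 and 0.04 in mock, 0.07, 0 and -0.08 in the scrambled control, and -0.12, -0.13 and -0.20 with the mimic. The mimic arrays lay below all control arrays. Mock array 3 lay among the scrambled values, away from the other mock arrays. The log2 change was -0.40 against mock (SE 0.081, limma adjusted p = 0.00541) and -0.15 against the scrambled control (95% interval -0.33 to 0.03, adjusted p = 0.287). Scrambled control against mock was -0.26 and passed only in 2 of 17 alternatives, 1 of them without mock array 3 (-0.36).

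The arrays of LAMA4, LAMB1, ITGB5, ITGB3 and ITGA2 are given by a choice made after their values were seen. LAMA4, an alpha chain of vessel walls and mesenchyme, had values of -0.02, 0.12 and 0.06 in mock, 0.06, 0.01 and 0.03 in the scrambled control, and -0.17, -0.12 and -0.14 with the mimic. It fell by 0.18 on the log2 scale against the scrambled control (limma adjusted p = 0.0283) and by 0.20 against mock (adjusted p = 0.0138). The mimic arrays were the lowest 3, but of its 5 probe sets 1 was called against the scrambled control (-0.51), and the other 4 did not pass, at -0.17 to 0.07. The call against the scrambled control was lost without any 1 of the 3 scrambled arrays, without mimic array 1 or 3 and with the replicate block. That against mock was lost without mock array 2. Without probe sets that hold more than 1 value at 0 the changes were larger, -0.33 and -0.38.

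LAMB1, the widespread beta chain, fell against mock by 0.21 (limma adjusted p = 0.0118) and changed by -0.15 against the scrambled control (adjusted p = 0.0688). Its values were 0.07, 0.12 and 0.12 in mock, 0.02, 0.12 and -0.01 in the scrambled control, and -0.11, -0.15 and -0.05 with the mimic. The mimic arrays were the lowest in all, with no overlap. LAMA2, the chain of muscle basement membrane, rose against mock by 0.20 (adjusted p = 0.0236) and had a change of 0.17 against the scrambled control (adjusted p = 0.0528). Its call against mock was lost without mock array 1 or 2 or mimic array 1 or 3. A call of LAMA2 against the scrambled control appeared without mimic array 2 (0.21) and where only genes at 4 or above were kept (0.17). It also appeared without probe sets of more than 1 value at 0 (0.20).

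LAMA1, LAMA5, LAMB4 and LAMC3 did not pass in any comparison. LAMC3 has 2 probe sets that disagree. Against mock the one in the higher class changed by 0.04 and the other was called lower at -0.42, so that the mean of both gave a call in the other direction (-0.19).

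**Figure D2:**
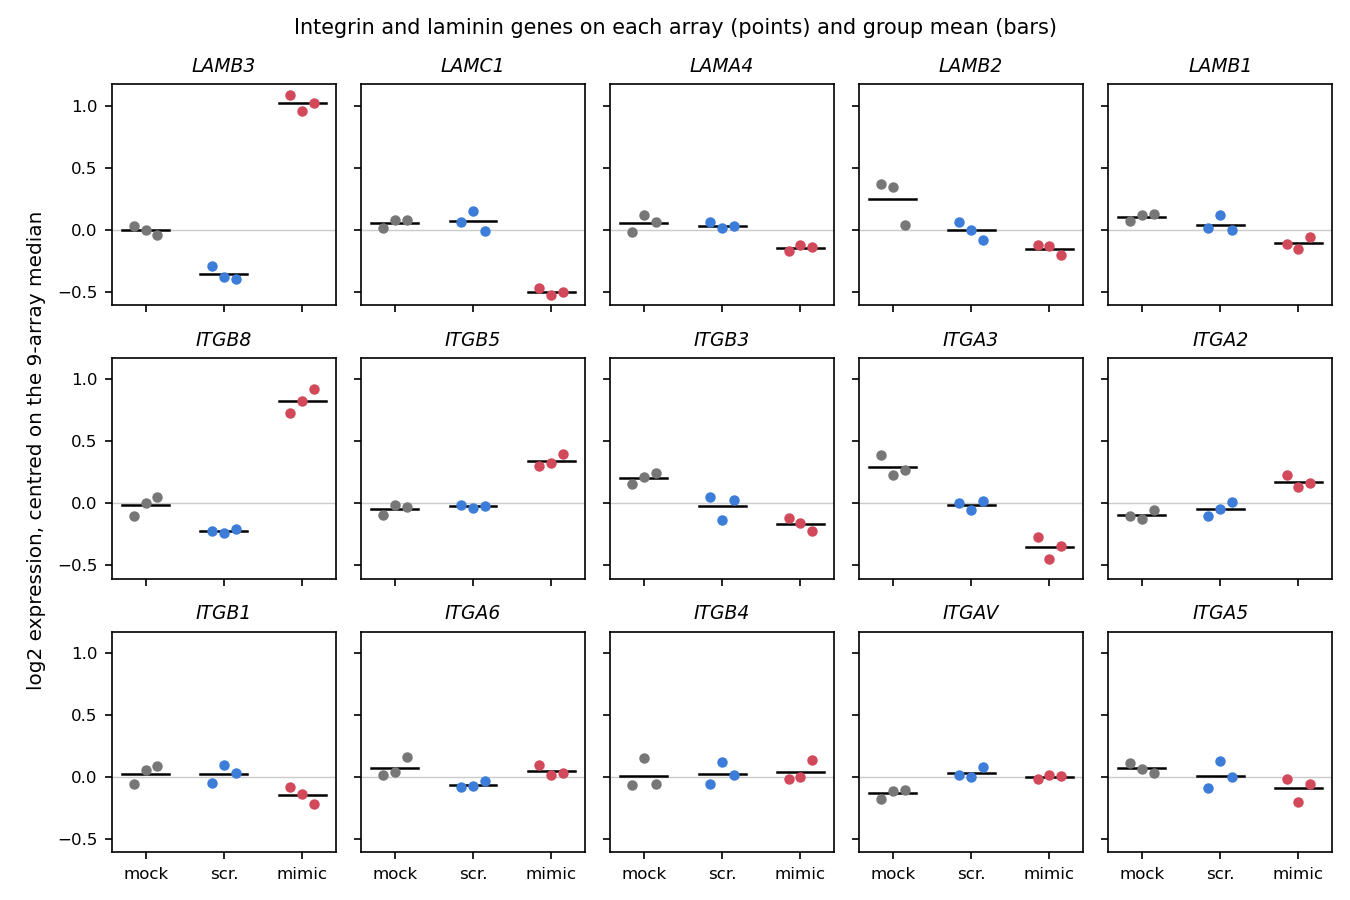
Centred log2 expression of 15 genes on each array (points, 3 per group; scr. is the scrambled control), with a bar at the group mean. The mimic arrays stand above both controls for LAMB3, ITGB8, ITGB5 and ITGA2. They stand below both for LAMC1, LAMA4, LAMB1, LAMB2, ITGA3 and, by a small distance, ITGB1.

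Of the laminin receptors, ITGA3 fell and ITGA6, ITGA7 and ITGB4 did not pass. ITGA3 had values of 0.39, 0.23 and 0.27 in mock, 0, -0.06 and 0.02 in the scrambled control, and -0.27, -0.45 and -0.34 with the mimic. The groups were ordered mock, scrambled, mimic from high to low with no overlap. The log2 change with the mimic was -0.34 against the scrambled control (SE 0.060, limma adjusted p = 0.00272) and -0.65 against mock (SE 0.060, adjusted p = 3.72e-05). The scrambled control was already -0.31 from mock (adjusted p = 0.0127), a call lost without mock array 1 (-0.26).

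ITGB1 is the beta chain that ITGA3 and most other alpha chains share. Its values were -0.06, 0.06 and 0.08 in mock, -0.05, 0.10 and 0.03 in the scrambled control, and -0.08, -0.13 and -0.22 with the mimic. The mimic arrays were the lowest, though mimic array 1 lay close to mock array 1. The change was -0.17 in both comparisons, with a 95% interval of -0.30 to -0.04 in each, and did not pass (limma adjusted p = 0.0849 against the scrambled control and 0.0712 against mock). The call turns on the choice of level classes: with an earlier rule for them ITGB1 was lower in both (-0.16 and -0.19). Over all alternatives its adjusted p ran from 0.0343 to 0.249 and from 0.0162 to 0.221. Without mock array 1 it was also called lower against mock (-0.21).

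The hemidesmosome pair showed no call. ITGA6 had values of 0.01, 0.04 and 0.16 in mock, -0.08, -0.07 and -0.03 in the scrambled control, and 0.09, 0.01 and 0.03 with the mimic, so mimic and scrambled arrays did not overlap while mimic and mock did. Its change was 0.11 against the scrambled control (95% interval -0.003 to 0.22) and -0.02 against mock (-0.13 to 0.09). The 2 ITGA6 probe sets were at 0.08 and -0.12 against mock. Scrambled control against mock was -0.13 for ITGA6 and was called only without probe sets of more than 1 value at 0 (-0.26). ITGB4 had values of -0.06, 0.15 and -0.06 in mock, -0.06, 0.12 and 0.02 in the scrambled control, and -0.01, 0 and 0.13 with the mimic, and all groups overlapped. Its change was 0.01 (95% interval -0.15 to 0.17) and 0.03 (-0.13 to 0.19). These values rest on 1 of its 5 probe sets. The 5 ran from -0.11 to 0.18 against the scrambled control and from -0.28 to 0.20 against mock, with 0 called.

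Of the RGD receptors, ITGB8 and ITGB5 rose. ITGB8 had values of -0.10, 0 and 0.05 in mock, -0.23, -0.24 and -0.21 in the scrambled control, and 0.73, 0.82 and 0.92 with the mimic. The mimic arrays lay far above the rest and the scrambled arrays below mock. ITGB8 was 2.07-fold higher than with the scrambled control (log2 change 1.05, SE 0.059, limma adjusted p = 1.38e-06) and 1.79-fold higher than in mock (0.84, SE 0.059, adjusted p = 6.41e-06). Scrambled control against mock was -0.21 (adjusted p = 0.0555) and passed in 8 of 18 alternatives, among them the fits without mimic array 1 or 3. Those values come from the 1 probe set at 8 or above. Of its 5 probe sets, 4 were called higher against the scrambled control (range 0.11 to 1.05) and 3 against mock (0.04 to 0.84). Of all probe sets, 4.52% were called higher and 4.15% lower against the scrambled control, and 5.07% and 6.98% against mock. The mean of all 5 gave a smaller change, 0.48 against the scrambled control and 0.42 against mock.

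The annotation also names an antisense gene at this locus, ITGB8-AS1. It rose by 0.46 against the scrambled control (limma adjusted p = 0.000182) and by 0.51 against mock (adjusted p = 9.3e-05). Whether its probes and those of ITGB8 share sequence was not tested.

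ITGB5 had values of -0.09, -0.01 and -0.03 in mock, -0.01, -0.03 and -0.02 in the scrambled control, and 0.30, 0.33 and 0.39 with the mimic. The controls overlapped each other and the mimic arrays stood clear of both. The log2 change was 0.37 against the scrambled control (SE 0.044, limma adjusted p = 0.000249) and 0.39 against mock (SE 0.044, adjusted p = 0.000166). In both comparisons 3 of its 4 probe sets were called higher.

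ITGB3, the partner of ITGA2B on platelets and of ITGAV on other cells, fell against mock. Its values were 0.15, 0.22 and 0.24 in mock, 0.05, -0.13 and 0.02 in the scrambled control, and -0.12, -0.16 and -0.22 with the mimic. Mimic and mock did not overlap, while mimic and scrambled arrays did. The change was -0.37 against mock (limma adjusted p = 0.0012) and -0.15 against the scrambled control (adjusted p = 0.125). Without scrambled array 2, the low one, the latter was -0.20 and was called. Of 7 probe sets, 5 were called lower against mock and 1 against the scrambled control.

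The shared alpha V chain moved little. ITGAV had values of -0.17, -0.11 and -0.10 in mock, 0.02, 0 and 0.08 in the scrambled control, and -0.02, 0.01 and 0.01 with the mimic. Both transfected groups lay above mock and overlapped each other. Mimic against scrambled control was -0.03 (95% interval -0.13 to 0.07) and mimic against mock 0.13 (limma adjusted p = 0.0626). The scrambled control was called higher than mock (0.16, adjusted p = 0.0493), a call lost in 12 of 18 alternatives: the fit without any 1 of the 9 arrays, the replicate block, the fit of only the 2 groups and the robust prior.

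ITGA5, the fibronectin receptor's alpha chain, had values of 0.11, 0.07 and 0.03 in mock, -0.09, 0.13 and 0 in the scrambled control, and -0.01, -0.20 and -0.06 with the mimic. The mimic arrays lay below mock but overlapped the scrambled arrays. The change was -0.10 (95% interval -0.25 to 0.04) against the scrambled control and -0.16 (-0.31 to -0.02, limma adjusted p = 0.123) against mock. ITGA8 and ITGA2B, which also bind RGD proteins, did not pass in any comparison.

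Of the collagen receptors, ITGA2 rose, ITGA1 fell, and ITGA10 and ITGA11 did not pass. ITGA2 had values of -0.10, -0.12 and -0.05 in mock, -0.11, -0.05 and 0.01 in the scrambled control, and 0.23, 0.13 and 0.17 with the mimic, which was above both controls on every array. Its change was 0.22 against the scrambled control (limma adjusted p = 0.0111) and 0.27 against mock (adjusted p = 0.00323). Taken singly, 0 of its 2 probe sets were called against the scrambled control (0.18 and 0.27) and 1 against mock. ITGA1 changed by -0.28 against the scrambled control (adjusted p = 0.0458) and by -0.20 against mock (adjusted p = 0.138), where the replicate block gave a call. The ITGA1 call against the scrambled control was lost in 9 of 17 alternatives, among them the removal of mock array 2 or 3, any scrambled array, or mimic array 1 or 3. Of the 3 ITGA1 probe sets, 0 were called against the scrambled control and 1 was called lower against mock.

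Of 7 integrins known from leukocytes, 1 was called in each mimic comparison, which is 14.3%, against 14.6% and 18.6% of all genes. Of 9 leukocyte markers measured, 0 passed against the scrambled control (limma; 0 at an unadjusted p under 0.05) and 1 was higher against mock. Of these integrins, ITGAE fell against the scrambled control (-0.20, limma adjusted p = 0.0125) and was at -0.11 against mock (adjusted p = 0.138). ITGAM rose against mock (0.21, limma adjusted p = 0.0167) and was at 0.04 against the scrambled control (adjusted p = 0.494). The ITGAM call was lost without mock array 3 or mimic array 3 and when all probe sets were averaged (0.09), and without mimic array 3 the scrambled control was called higher than mock (0.17). ITGAD, ITGAL, ITGAX, ITGB2 and ITGB7 did not pass. ITGA4 and ITGA9, which bind VCAM1 and fibronectin among others, did not pass either, and ITGA4 was called lower against the scrambled control only without mimic array 2 (-0.27).

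**Figure D3:**
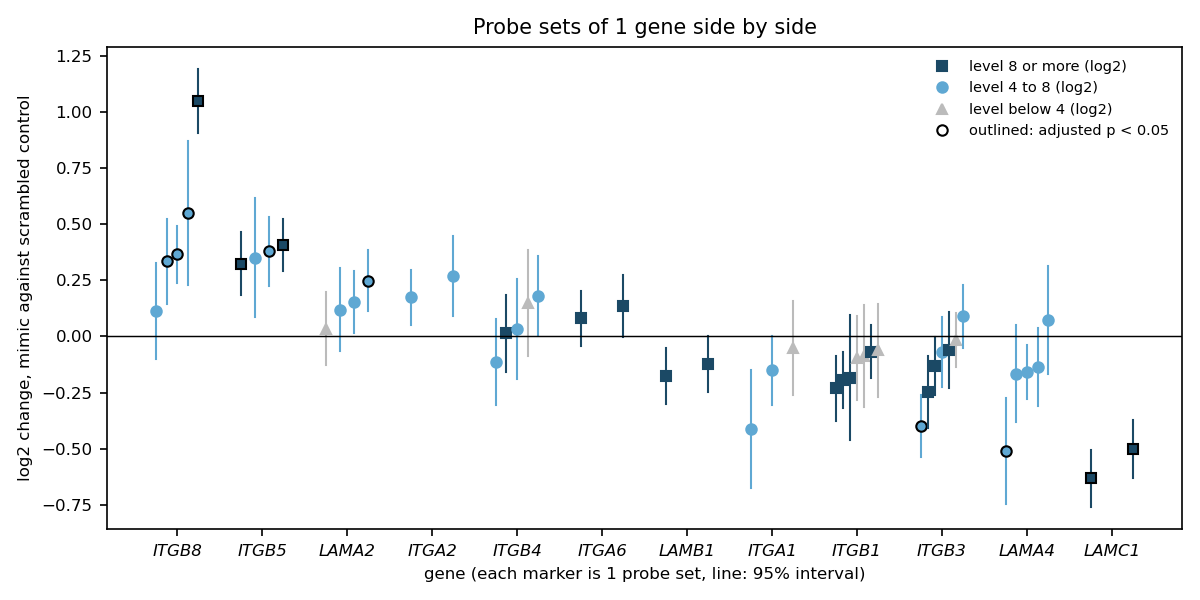
Log2 change of each probe set of 12 genes, mimic against scrambled control, with 95% intervals, marker shape by level class and a black outline for an adjusted p under 0.05. The probe sets of ITGB5 and LAMC1 lie close together, those of ITGB8 run from 0.11 to 1.05 and those of LAMA4 from -0.51 to 0.07.

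The partners of these proteins were read from lists of textbook members, and the share called in each list is set beside the 14.6% of all genes called against the scrambled control and the 18.6% called against mock. Of 37 measured integrin ligands other than laminins, 0 rose and 6 fell against the scrambled control, and 0 rose and 12 fell against mock in the limma fit, with a list median of -0.02 and -0.08. The called ligands were 16.2% and 32.4% of the list. At an unadjusted p under 0.05 the same limma fit had 3 and 1 higher. In the scrambled control 8 were already lower than in mock and 0 higher. That is 21.6% of the list, where 7.99% of all genes were called (2.77% higher, 5.23% lower). FN1, fibronectin, fell most: its values were 0.35, 0.40 and 0.45 in mock, 0.00, 0.01 and -0.01 in the scrambled control, and -1.07, -1.17 and -1.03 with the mimic. It was 2.13-fold and 2.81-fold lower than in the scrambled control and in mock. VCAM1, the ligand of ITGA4 with ITGB1, changed by -0.44 and -0.81, and ICAM3 by -0.26 and -0.18, in that order. The ICAM3 call against mock was lost in 9 alternatives: without any 1 mock array, scrambled array 2 or mimic array 2 or 3, with the replicate block, after quantile normalization, and in the fit of only the 2 groups. COL6A1, a collagen VI chain, changed by -0.37 and -0.62, but its call against the scrambled control was lost when all its probe sets were averaged (-0.02 and -0.37). That mean gave -0.72 for FN1 against the scrambled control.

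Of 19 basement membrane partners of laminins, 3 rose and 4 fell against the scrambled control, and 2 rose and 5 fell against mock, 36.8% of the list in each. NTN4, a laminin-binding netrin, was 2.14-fold and 2.54-fold higher. AGRN, the proteoglycan agrin, changed by -0.34 and -0.51, COL4A5, a collagen IV chain, by -0.32 and -0.23, and FRAS1 by -0.34 and -0.17, the last of which did not pass. Averaged over all probe sets AGRN was at -0.20 and -0.32, FRAS1 at -0.19 against the scrambled control, and COL4A5 lost its call against mock (-0.12). Of 13 hemidesmosome, tetraspanin and other laminin receptor genes, 2 rose and 2 fell against the scrambled control, and 0 rose and 3 fell against mock (limma; 2 higher at an unadjusted p under 0.05), or 30.8% and 23.1% of the list. CD151, the tetraspanin that binds ITGA3, changed by -0.17 and -0.38, and SGCB, a sarcoglycan, by -0.30 and -0.39. SDC1 changed by 0.23 and 0.14, the latter not passed. CD9 changed by 0.38 against the scrambled control and -0.02 against mock, and its call was lost when all probe sets were averaged (0.15).

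Of 36 focal adhesion genes and integrin regulators, 1 rose and 7 fell against the scrambled control, and 2 rose and 9 fell against mock, or 22.2% and 30.6% of the list. FERMT2, a kindlin, activates integrins and changed by -0.45 and -0.34. TGFB1I1, a relative of paxillin, changed by -0.62 and -0.85, and PARVB, which links integrins to actin, by -0.22 and -0.26. NEDD9, a docking protein of focal adhesions, changed by -0.18 against the scrambled control and -0.01 against mock. The mean of all probe sets ended the calls of NEDD9 (-0.08) and PARVB (-0.12) against the scrambled control. The PARVB call was also lost with the replicate block, without tied probe sets, and without scrambled array 3 or any 1 mimic array. That of NEDD9 was also lost without scrambled array 2 or mimic array 1 or 3. Of 9 genes of latent TGF-beta, its storage and its release, 1 rose and 0 fell against the scrambled control (limma; 0 lower also at an unadjusted p under 0.05), and 1 rose and 2 fell against mock, or 11.1% and 33.3% of the list. TGFB2, a ligand held latent until released, changed by 0.72 and 0.59. LTBP1, LTBP3 and NRROS did not pass against the scrambled control. Those lower against mock were TGFB1 and LTBP3. TGFB1, named after its values were seen, was at 0.53, 0.44 and 0.46 in mock. It was at -0.09, -0.21 and 0 in the scrambled control, and 0.08, -0.16 and -0.06 with the mimic, which overlapped. Its changes were the lowest of the list, -0.52 for mimic against mock and -0.58 for scrambled control against mock. TGFB1 was not refitted in the alternatives. LTBP3 holds latent TGF-beta in the matrix. It was lower than mock with the mimic (-0.52) and with the scrambled control (-0.45), but without tied probe sets it was at 0.0214 and 0.065.

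**Figure D4:**
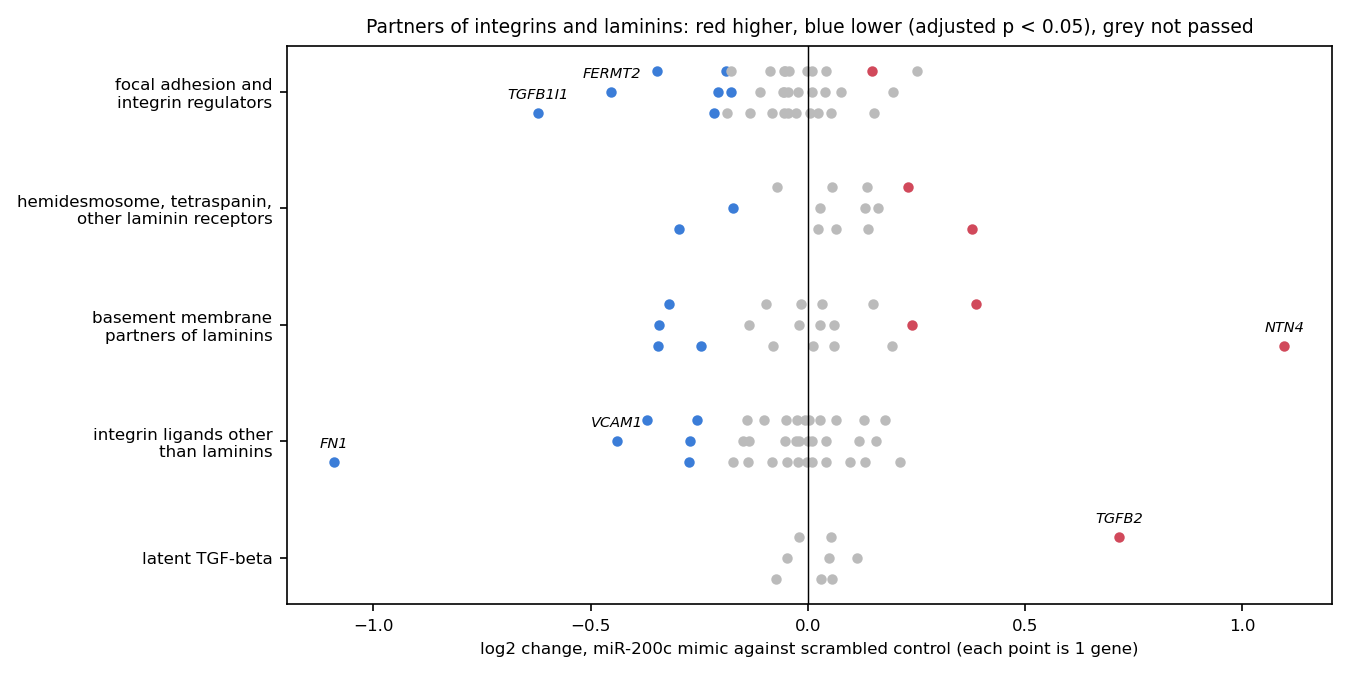
Log2 change, mimic against scrambled control, of each measured gene of 5 lists of integrin and laminin partners, red for higher and blue for lower at an adjusted p under 0.05 and grey for not passed. FN1 lies at -1.09 and NTN4 at 1.10, and no red point stands among the other integrin ligands.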

How the data were processed

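Total RNA was hybridised to 1-colour arrays. The authors deposited 1 table of log-scale expression, taken here as log2, for 54675 probe sets on 9 arrays, per the file headers; from its values it is centred on each probe set's median. The base of the logarithm, on which every fold rests, the summary method and the normalization are not given in the sources used here. In 48.89% of probe sets more than 1 value was exactly 0, and such ties can lower the spread.

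Members, gene lists and tests were chosen with earlier results of these data known. The rule that sets the level classes was settled after the values were seen: fits of the members were first made with a fixed cost for values that straddle a class boundary. The rule was then changed, after ZEB1 came out at a smaller change than in the earlier results, to weigh such boundaries by the gap between values. On 6000 simulated probe sets the class was recovered in 97.4% with the final rule and 97.2% with the first, and 3 of 95 member probe sets changed class. The results of both rules are given.

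Gene symbols come from the platform annotation, and all 35 members kept their symbol in the GRCh38.p14 gene table. Probe sets with 1 symbol were used. Group means over all 9 arrays were compared by moderated tests of limma (version 3.58.1, R 4.3.3; two-sided, lmFit then eBayes, Benjamini-Hochberg over 19775 genes, or over all probe sets that are not controls) and the code was tested on simulated data. The median SE of a difference was 0.059. Array values are given for members called with a change of at least 0.4 against either control. They are also given for members named in the plan whatever their values, and for those said to be chosen later. Of each list the 4 genes with the smallest p against the scrambled control are named. TGFB1 was added to these after its values were seen. Alternatives were the replicate block, the mean of all probe sets, quantile normalization of the centred values and filters on level class. Others were only the groups compared, a robust prior, omission of tied probe sets, the first class rule and the omission of each array. The quantile step thus evened out deviations from the median and not expression levels.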

Additional observations from a re-analysis of the deposited data

How the results depend on the processing

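Of the alternative values of single members over the 3 comparisons, 1723 stayed on their side of the threshold, 31 gained a call, 44 lost it and 2 gained a call in the other direction. Of the 1723, 394 were called with the same sign; of those not called, 1246 kept their sign and 83 changed it. The 2 that turned were LAMC3 against mock, at -0.19 with the mean of all probe sets and -0.42 without probe sets of more than 1 value at 0. Among the other genes named, COL6A1 against the scrambled control was 0.0186 without tied probe sets, and LTBP3 was then 0.0214 for mimic against mock, from -0.52, and 0.065 for scrambled control against mock, from -0.45. The mean of all probe sets brought LTBP3 against mock to -0.20. CD151 against the scrambled control lost its call in 9 alternatives. LAMB3, ITGB8, ITGB5, ITGA2, LAMC1 and ITGA3 kept their calls against both controls in every alternative that measured them.

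Of the counts against the scrambled control, 4 higher members became 2 where genes of the class 8 or above alone were kept, which measures 14 members. In that fit 32.3% of all genes were called in either direction, against 14.6% in the main fit. Leaving out 1 array gave 4 to 5 higher and 3 to 6 lower, with 11% to 14.1% of all genes called. Against mock it gave 4 to 6 higher and 5 to 7 lower, with 13.5% to 18.1% of all genes called. For scrambled control against mock, 1 higher member became 0 with a robust prior, 2 after quantile normalization and 2 in the class 8 or above. Of all genes 7.91%, 10% and 24.8% were called there in either direction, against 7.99% in the main fit. The 3 lower members became 5 without tied probe sets (26 members measured), where 14% of all genes were called. Without 1 array 0 to 1 members were higher and 1 to 4 lower, with 1 lower where mock array 1 was left out. Those fits called 3.87% to 8.41% of all genes. The first rule for level classes, added after the data were seen, gave 4 higher and 6 lower members against the scrambled control. It gave 6 and 7 against mock, and 1 and 3 for scrambled control against mock, and ITGB1 made the difference. The shares of all genes called were then 14.6%, 18.7% and 8.05%.

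Arrays share replicate numbers, and no pairing by number was seen. Deviations of same-numbered arrays correlated at -0.155 to 0.116, 1 of 9 above 0.1, and 6 of 18 were best with their own number. Deviations from the mean of only 3 arrays cannot show that the arrays were unpaired. With the replicate number as a block the counts were 4 higher and 4 lower against the scrambled control and 6 and 7 against mock. For scrambled control against mock they were 0 and 4. The block fit called 13.1%, 16.8% and 6.21% of all genes in these comparisons. With 3 arrays a group, few residual degrees of freedom limit the precision, and signal over background is not known.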
